A study of Mus musculus with 36 samples.

Results

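The Hox and Cdx genes are the homeobox genes that record position along the head-to-tail axis. They were taken from the count table as every protein-coding gene named Hoxa, Hoxb, Hoxc or Hoxd plus a number, together with Cdx1 and Cdx2. This gave 41 genes (39 Hox and 2 Cdx) of 55358 in the table. Of these, 27 passed the filter on low counts and were tested among 15114 genes, and 14 did not.

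The study sequenced poly(A) RNA of mouse keratinocytes with and without plakophilin 4 (PKP4, gene Pkp4), a protein of cell-cell junctions. WT keratinocytes came from newborn Pkp4+/+ pups and PKP4-KO keratinocytes from newborn Pkp4-/- pups. The allele came from the strain C57BL/6N-Pkp4tm1b(EUCOMM)Wtsi/JMmucd, its lacZ reporter had been removed with FLPe mice, and the line had been backcrossed to C57BL/6J. Rescue cells were the PKP4-KO cells after lentiviral transduction with human PKP4 carrying an N-terminal EGFP tag and puromycin selection. Each line was cultured for 24 h or 72 h in low calcium medium (LCM) or high calcium medium (HCM), with 3 libraries per condition, which made 12 groups and 36 libraries. All 3 lines shared the collagen-coated growth surface and the LCM base medium, and HCM was LCM with added calcium chloride. The labels call the libraries biological replicates, but do not say how many pups or isolations stand behind a line. Differences between the lines can therefore not be told apart from differences between the pups or isolations they came from. For the same reason the p-values measure the spread between these libraries. The Rescue cells differed from the PKP4-KO cells by transduction, antibiotic selection and transgene together, which likewise cannot be told apart.

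Hox genes encode transcription factors with a homeodomain, a DNA-binding fold encoded by the homeobox. They lie in clusters, and genes at one end of a cluster are used towards the head and genes at the other end towards the tail, so that the set a cell keeps records where it came from. Skin cells keep such a set after birth. Cdx genes encode caudal-type homeodomain factors that act upstream of the more posterior Hox genes in the embryo, and Cdx2 is the factor that maintains intestinal epithelium in the adult. Polycomb proteins keep the unused Hox genes silent, Trithorax proteins keep the used ones active, and retinoic acid, Wnt and FGF signals open the clusters in the embryo.

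The members lay in 4 clusters of the GRCm39 assembly and at the Cdx loci. The Hoxa cluster held 11 members on chromosome 6 from 52132570 to 52237822 (105.3 kb, minus strand). The Hoxb cluster held 10 on chromosome 11 from 96085106 to 96259082 (174.0 kb, plus strand). The Hoxc cluster held 9 on chromosome 15 from 102829538 to 102945278 (115.7 kb, plus strand). The Hoxd cluster held 9 on chromosome 2 from 74498654 to 74595486 (96.8 kb, plus strand). Cdx2 lay on chromosome 5 from 147237615 to 147244091 on the minus strand.

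The homeoboxes of 3 genes on which the results turn are shown because the members resemble each other there, and reads from this stretch could be confused between them. Hoxb9 and Hoxb7 are the 2 members with the highest level per kb of exon in any line, and Cdx2 follows as the caudal factor. Capitals mark the 18 bases of the conserved core of the third, DNA-contacting helix. The sequences are coding strand DNA of the GRCm39 genome, in the last exon of both Hox genes, and that of Cdx2 is spliced from exons 2 and 3 of 3.
Hoxb9 (chr11:96165485-96165664, plus strand): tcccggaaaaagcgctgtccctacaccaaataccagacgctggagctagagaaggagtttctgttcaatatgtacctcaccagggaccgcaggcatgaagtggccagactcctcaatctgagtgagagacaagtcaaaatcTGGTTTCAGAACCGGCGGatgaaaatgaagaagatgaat
Hoxb7 (chr11:96180211-96180390, plus strand): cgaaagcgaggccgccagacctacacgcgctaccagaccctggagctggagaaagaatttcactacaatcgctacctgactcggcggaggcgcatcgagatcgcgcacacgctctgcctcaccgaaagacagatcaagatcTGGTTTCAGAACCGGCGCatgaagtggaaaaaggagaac
Cdx2 (chr5:147238856-147240122, minus strand, spliced): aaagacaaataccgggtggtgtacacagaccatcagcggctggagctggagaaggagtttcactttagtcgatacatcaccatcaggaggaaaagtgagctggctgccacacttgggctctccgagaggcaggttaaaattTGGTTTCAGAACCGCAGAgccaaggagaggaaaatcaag

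Between members these 180-base stretches differed at many positions. The closest relative of the Hoxb7 homeobox was that of Hoxb6, with 88.9% identity. Hoxb9 was closest to Hoxd9 (84.4%) and Cdx2 to Cdx1 (78.3%). Across whole transcripts the longest identical run between members was 60 bases, between Hoxb6 and Hoxc9, and 4 of 820 pairs shared a run of at least 50 bases. Hoxc5 and Hoxc10 also share exon sequence on the same strand, which makes up 5.4% of the exon length of Hoxc5 and 8.1% of that of Hoxc10. Hoxa2, Hoxa3, Hoxa4, Hoxa7, Hoxb2, Hoxb3, Hoxb5, Hoxb6, Hoxb9 and Hoxd8 overlap exons of an antisense RNA. So do Hoxa11, Hoxd3 and Hoxd4, which were not tested. The strand setting of the counting is not given in the sources used here, so reads of these genes and of their antisense partners may not have been separated.

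In the PKP4-KO line the members as a group stood well above their WT level, and in the Rescue line they stood in between, except at 72 h in HCM. Levels are CPM, counts scaled to a common library size with TMM factors. The 41 members together summed to 39.7 to 67.2 CPM in the 12 WT libraries (median 52.4), to 120 to 256 CPM in the 12 PKP4-KO libraries (median 201) and to 71.5 to 142.5 CPM in the 12 Rescue libraries (median 99.3). No PKP4-KO library overlapped a WT library, and no Rescue library did either. At 72 h in HCM the mean was 135.4 CPM in Rescue and 125.7 CPM in PKP4-KO, and the libraries of these lines overlapped. With no TMM factors, as CPM of the deposited counts alone, the sum was 61.5 to 70.4 in the 3 PKP4-KO 72 h HCM libraries, which lies within the 34.3 to 81.9 of WT, and 155.7 to 263 in the other 9 PKP4-KO libraries. Within the 72 h HCM condition these 3 libraries still lay above WT (34.3 to 39.8), but below Rescue (140.8 to 169). The number of members with more than 3 counts, the detection floor used here, was 11 to 19 in WT libraries, 22 to 29 in PKP4-KO and 17 to 25 in Rescue. The lines were chosen for description because earlier results of these data showed such a pattern. Comparisons between lines are therefore given as values and calls without p-values, which describe the pattern and are no independent test of it. In bulk RNA, fewer cells that express a gene and less RNA per cell cannot be told apart.

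The libraries held 13602728 to 22467187 counts, and 3 counts corresponded to 0.110 to 0.436 CPM. Pkp4 itself stood at 33.4 to 76.3 CPM in WT, 6.396 to 14.1 CPM in PKP4-KO and 6.52 to 11.9 CPM in Rescue, where the transgene is human. The 3 PKP4-KO 72 h HCM libraries stood apart by TMM factors of 0.481 to 0.546, against 0.705 to 1.39 in the other 33. TMM scaling of these 3 libraries changed some calls between PKP4-KO and WT, and values without TMM factors stand beside several of those results. All 10 keratinocyte markers exceeded 3 counts in every library of every line, and they summed to 36540 to 63640 CPM in WT, 42470 to 75140 in PKP4-KO and 26460 to 43420 in Rescue. The basal keratins Krt5 and Krt14 stood at 7624 CPM or more throughout. Other keratinocyte markers differed in all 4 conditions, with Krt15, a keratin of hair follicle stem cells, higher in PKP4-KO than in WT by a mean of 4.58 on the log2 scale and the adhesion genes Dsg3 and Cdh1 lower, at means of -1.62 and -0.86. Against PKP4-KO, Rescue had Krt15 lower (-4.27) and Dsg3 and Cdh1 higher (1.43 and 1.06). The 7 fibroblast markers, a cell type with its own Hox code, summed to 0.153 to 9.41 CPM in WT, 0 to 4.50 in PKP4-KO and 0.221 to 11.5 in Rescue, and the collagen genes Col1a1 and Col1a2 were at 0 in some libraries of each line. The 6 melanocyte markers summed to 0.583 to 3.29, 0.850 to 2.01 and 2.06 to 6.52 CPM, the 4 endothelial markers to 2.36 to 5.41, 0.582 to 5.37 and 2.53 to 4.402, the 4 immune markers to 0 to 0.525, 0.0466 to 0.762 and 0 to 0.403, and the 5 Merkel cell markers to 13.02 to 29.1, 7.56 to 42.9 and 22.7 to 44.4 in the same order of lines. Among these, PKP4-KO had less Krt20 of Merkel cells and less Kdr of endothelium than either WT or Rescue in all 4 conditions, with at most 0.150 and 0.200 CPM. Other genes of these 2 lists had their highest median in PKP4-KO. Isl1 of the Merkel cell list stood at medians of 1.067, 2.692 and 2.272 CPM in WT, PKP4-KO and Rescue. Of the endothelial list, Pecam1 stood at 2.003, 3.272 and 2.415 CPM and Tek at 0.0554, 0.425 and 0.0434 CPM. Mlana, a melanocyte gene, was higher in Rescue than in WT by a mean of 2.29 on the log2 scale, at no more than 1.64 CPM. The part of these markers in the differences of Hox and Cdx genes was not tested.

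**Figure D1:**
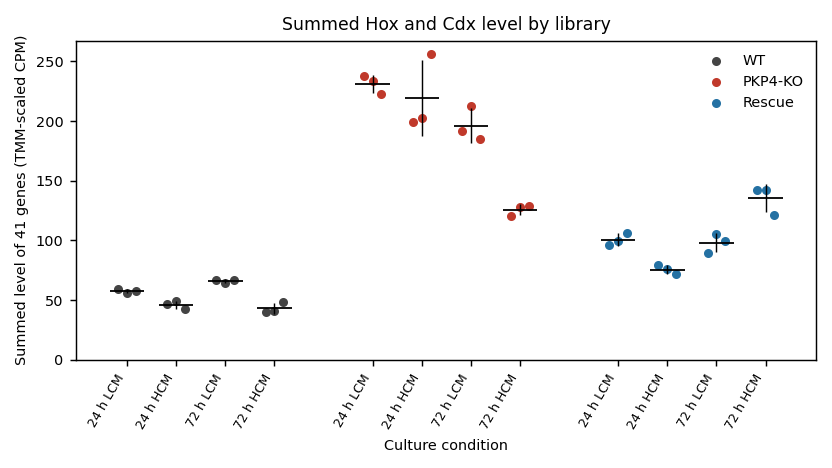
Summed level of the 41 Hox and Cdx members in CPM (TMM-scaled) in each of the 36 libraries, by line and culture condition, with the mean and SD of each group of 3. PKP4-KO libraries lie between 120 and 256 CPM, WT libraries between 39.7 and 67.2, and Rescue libraries between 71.5 and 142.5.

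The clusters did not contribute alike. The Hoxc members stood at a median of 10.4 CPM over WT libraries, at 62.3 over PKP4-KO libraries and at 14.04 over Rescue libraries. The Hoxa members stood at a median of 8.46, 43.3 and 24.4 CPM, and the Hoxb members at 31.5, 73.4 and 60.1 CPM, in WT, PKP4-KO and Rescue. The Hoxd members stood at 3.31 CPM in WT and 12.5 in PKP4-KO, but at 0.464 in Rescue, where the highest library (1.05 CPM) lay below the lowest WT library (2.45 CPM). By these sums Rescue was near PKP4-KO for the Hoxb cluster, near WT for the Hoxc cluster and below both for the Hoxd cluster. The Hoxc sums of WT and Rescue were mostly Hoxc13, at medians of 9.795 and 10.7 CPM. Hoxc4, Hoxc6 and Hoxc9 had means of 1.09, 0.899 and 1.07 CPM in Rescue and 0.0579, 0.102 and 0.293 CPM in WT. In the Hoxb sums, Hoxb9 alone had medians of 22.1, 27.3 and 31.0 CPM in WT, PKP4-KO and Rescue. Hoxb reads made up 54.9% of all member reads in the median WT library, 37.0% in PKP4-KO libraries and 60.2% in Rescue.

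By position along the axis, the central members (paralogue numbers 4 to 8) differed most between PKP4-KO and WT. They summed to 9.94 to 16.6 CPM in WT, 63.5 to 145.8 CPM in PKP4-KO and 26.4 to 52.3 CPM in Rescue. The anterior members (1 to 3) summed to 3.45 to 8.85, 15.0 to 31.0 and 14.01 to 27.6 CPM, so that Rescue and PKP4-KO overlapped for them. The posterior members (9 to 13) summed to 21.7 to 46.3, 35.03 to 73.9 and 27.1 to 66.6 CPM, and all 3 lines overlapped over all conditions. Within conditions their means were higher in PKP4-KO than in WT. In the order 24 h LCM, 24 h HCM, 72 h LCM and 72 h HCM, the WT means were 35.5, 29.0, 45.4 and 25.0 CPM. Those of PKP4-KO were 69.7, 63.8, 63.4 and 37.3 CPM, and those of Rescue 43.3, 32.0, 42.3 and 60.1 CPM.

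**Figure D2:**
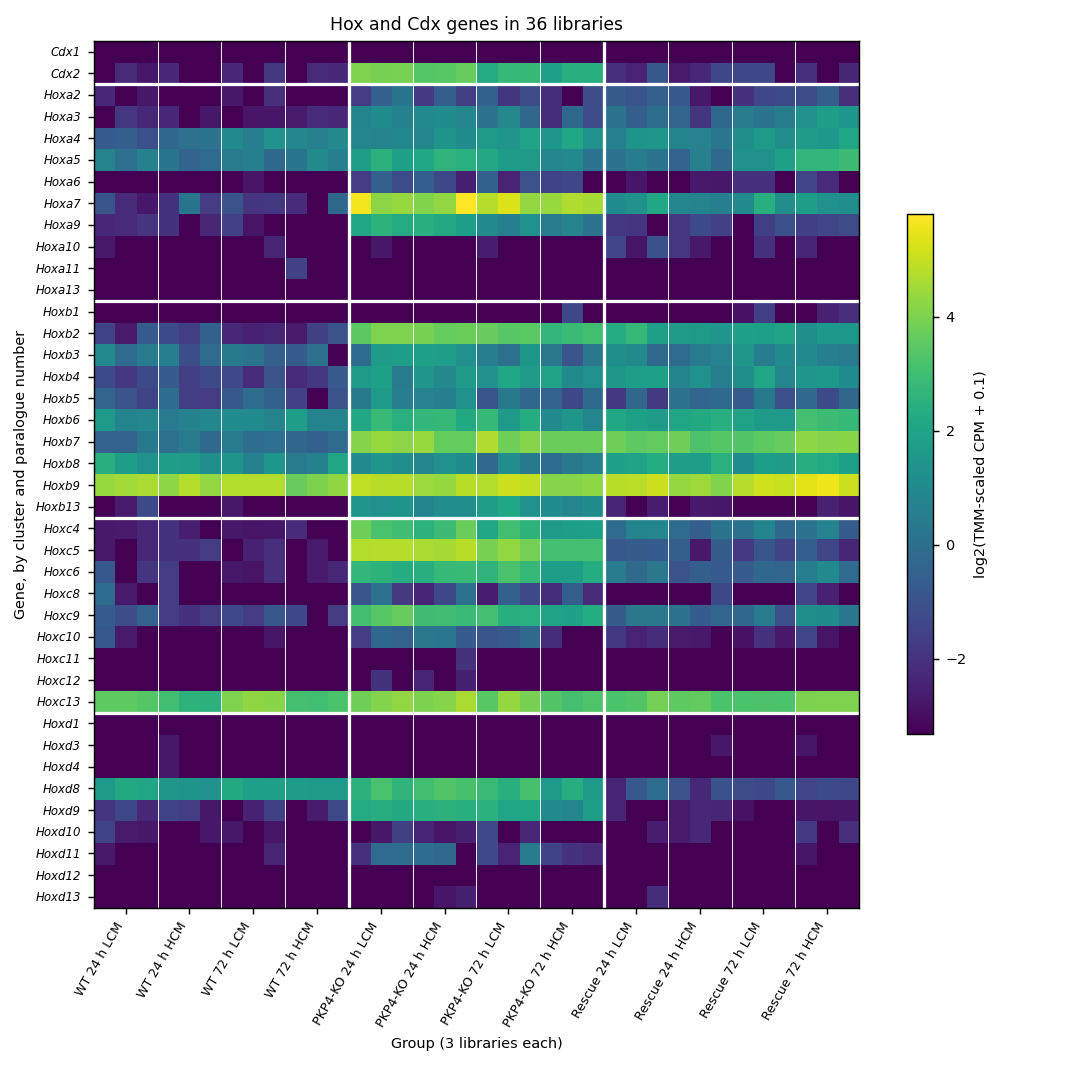
Level of the members reported here, ordered by cluster and position, in the 36 libraries grouped by line and condition, coloured by log2(CPM + 0.1) from dark (low) to yellow (high). Hoxa7, Hoxc4, Hoxc5, Hoxc6 and Cdx2 are bright in the PKP4-KO columns and dark in WT, and Hoxd8 is dark in Rescue.

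WT keratinocytes used few members. Per kb of exon, the highest was Hoxb9, a gene of the thoracic skeleton and mammary gland, at a mean of 8.54 CPM per kb over the 12 libraries. Hoxc13, which controls hair and nail keratin genes, followed at 4.49, and Hoxd8 stood at 1.21 CPM per kb. Hoxb9 ranged from 12.6 to 27.5 CPM over the 12 WT libraries, Hoxc13 from 5.76 to 19.3 CPM and Hoxd8 from 2.34 to 4.61 CPM. By contrast Cdx2 was at 0 to 0.182 CPM in WT, Hoxc5 at 0 to 0.204 CPM and Hoxb13 at 0 to 0.312 CPM, which is at or near the level of 3 counts.

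In the PKP4-KO line the order was another one. Hoxb7 led at a mean of 10.8 CPM per kb, with Hoxa7 at 9.83, Hoxb9 at 9.78, Hoxc5 at 6.31, Hoxc13 at 6.24 and Cdx2 at 4.17. In the Rescue line Hoxb9 led at 12 CPM per kb, followed by Hoxb7 at 8.63, and Hoxc13 stood at 4.84. Hoxb9 and Hoxc13 were among the leading members of all 3 lines.

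**Figure D3:**
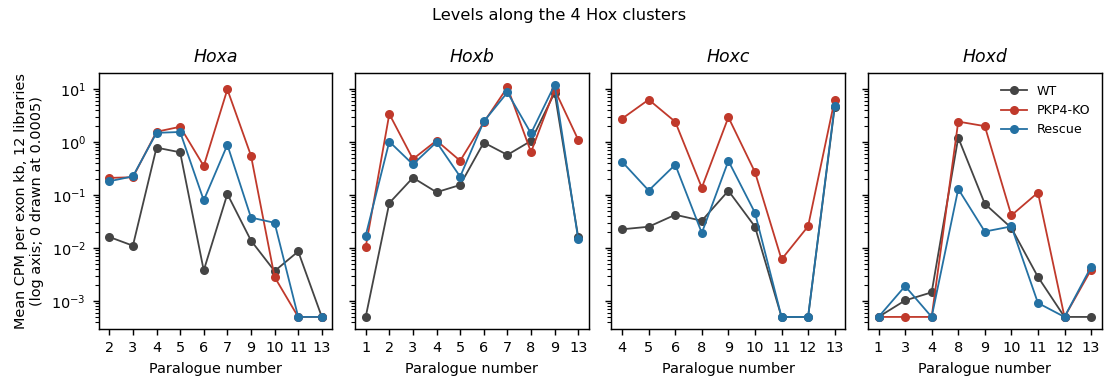
Mean level per kb of exon over the 12 libraries of each cell line (CPM per kb, log axis) for the members reported here in the 4 clusters in order of paralogue number, with 0 drawn at 0.0005. The lines lie close together at Hoxb9 and Hoxc13, and PKP4-KO lies far above WT at Hoxa7, Hoxb7 and Hoxc5.

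Called in this report means an adjusted p below 0.05 in edgeR's quasi-likelihood test. In PKP4-KO against WT, 21 of the 27 tested members were called higher at 24 h in LCM (19.7% of all tested genes), 24 at 24 h in HCM (20.7%), 21 at 72 h in LCM (21.3%) and 16 at 72 h in HCM (21.9%). None was called lower in any of the 4 conditions, where 20.6%, 22.2%, 23.8% and 29.9% of all genes were. At an unadjusted p below 0.05 the edgeR test had 0, 0, 0 and 1 members lower, and DESeq2 called 0. Without TMM factors, 12 members were called higher and 3 lower at 72 h in HCM, the lower ones being Hoxb8 (-1.57 on the log2 scale), Hoxc13 (-0.62) and Hoxb9 (-0.57), while Hoxa2 (3.71), Hoxa3 (1.21) and Hoxa4 (0.09) were among those no longer called higher. A member that passed the low-count filter only through the line in which it is high had to differ, so these counts describe the pattern and are no support for it. The median log2 difference over the 27 was 3.42, 4.92, 4.22 and 4.24, or 2.03, 2.61, 2.09 and 2.56 with members at the detection floor set to their bound, against -0.07 to 0.02 over all genes.

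In all 4 conditions 14 members were called higher in PKP4-KO than in WT (8.48% of all genes). These were Cdx2, Hoxa3, Hoxa4, Hoxa7, Hoxa9, Hoxb2, Hoxb4, Hoxb7, Hoxb13, Hoxc4, Hoxc5, Hoxc6, Hoxc9 and Hoxd9. None was lower in all 4 (10.2%). Leaving out 1 library at a time gave 12 to 15 members. Without TMM factors the number was 12, since Hoxa3 (1.21 on the log2 scale) and Hoxa4 (0.09) were not called at 72 h in HCM. By range alone, all PKP4-KO libraries lay above all WT libraries of the same condition in all 4 conditions for 15 members, these 14 included (8.97% of all genes). Hoxa3 lost its call at 72 h in HCM without any of 5 libraries, at log2 differences of 1.30 to 2.25. Hoxa4 lost its call at 72 h in LCM without any of 4 libraries (0.50 to 0.73) and in HCM without replicate 2 of either line (0.57 and 0.76). Without the 3 PKP4-KO 72 h HCM libraries, 17 members were called higher in the 3 conditions that remained.

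Cdx2 stood well above the detection floor in the PKP4-KO line and near it in the 24 other libraries. It stood at 16.3, 15.3 and 15.5 CPM in the 3 PKP4-KO libraries at 24 h in LCM, at 10.4, 10.7 and 12.8 CPM at 24 h in HCM, at 4.69, 6.79 and 6.75 CPM at 72 h in LCM and at 3.56, 5.23 and 5.11 CPM at 72 h in HCM. Its highest WT library held 0.182 CPM and its highest Rescue library 0.458 CPM, so that neither overlapped PKP4-KO. PKP4-KO was at least 96.2-fold higher than WT at 24 h in LCM, at least 64.7-fold at 24 h in HCM, at least 44.9-fold at 72 h in LCM and at least 21.0-fold at 72 h in HCM, since the WT mean did not exceed the level of 3 counts. The Rescue level was 69.5-fold lower than PKP4-KO at 24 h in LCM, at least 70.4-fold at 24 h in HCM, 31.0-fold at 72 h in LCM and at least 34.9-fold at 72 h in HCM. With a library left out, the fitted log2 difference of Rescue from PKP4-KO was -7.09 to -5.78 at 24 h in LCM and -5.50 to -4.34 at 72 h in LCM. Cdx1 had no read in any library, and neither had Cdx4, the third caudal gene, which is no member.

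Of the 15 intestinal epithelium genes listed as a companion of Cdx2, 1 passed the low-count filter, and it was not called in any PKP4-KO to WT comparison by edgeR. The 15 genes summed to 0.721 to 3.03 CPM in WT, 0.853 to 3.29 CPM in PKP4-KO and 0.840 to 2.23 CPM in Rescue. Most of this was Lgals4, a galectin, at a median of 0.925, 1.02 and 0.698 CPM. Cdh17, an intestinal cadherin, had no read, and Muc2, the goblet cell mucin, was at 0 in all PKP4-KO libraries. Isx was at 0 in all WT and Rescue libraries and reached 0.795 CPM in PKP4-KO, where 7 of 12 libraries were at 0. Gpa33 reached 0.0396, 0.3765 and 0.1655 CPM in WT, PKP4-KO and Rescue, and Fabp2 reached 1.128, 0.1454 and 0.3927 CPM.

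Hoxc5, a central member of the Hoxc cluster, showed a similar split of PKP4-KO from the other lines. In PKP4-KO it stood at 26.6, 27.7 and 27.5 CPM at 24 h in LCM, 24.7, 24.0 and 28.1 CPM at 24 h in HCM, 15.3, 20.1 and 14.7 CPM at 72 h in LCM and 8.26, 8.43 and 8.29 CPM at 72 h in HCM. All WT libraries lay at or below 0.204 CPM and all Rescue libraries at or below 0.577 CPM. PKP4-KO was above WT by at least 167-fold at 24 h in LCM, 147-fold at 24 h in HCM, 124-fold at 72 h in LCM and 37.8-fold at 72 h in HCM. Against PKP4-KO, the Rescue level was 53.9-fold, 65.3-fold, 56.5-fold and 27-fold lower in the same order, and with a library left out the fitted log2 differences lay between -6.36 and -4.32. Against WT, Rescue was called higher for Hoxc5 in 3 of the 4 conditions, and its libraries lay above WT in the same 3. The fitted log2 difference was 1.17 to 3.41 over the 4 conditions, with WT at or near the level of 3 counts. For Cdx2, Rescue was called higher than WT in 0 conditions.

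Of the neighbours of Hoxc5 in the cluster, Hoxc4, Hoxc6 and Hoxc9 followed the same order of lines. Hoxc8, between Hoxc6 and Hoxc9, did not, with 0 to 0.846 CPM in WT, 0.0610 to 0.960 in PKP4-KO and 0 to 0.298 in Rescue. Hoxc4 ranged from 0 to 0.155 CPM in WT, 2.92 to 13.8 in PKP4-KO and 0.523 to 1.70 in Rescue. Hoxc6 ranged from 0 to 0.476, 3.30 to 9.06 and 0.404 to 1.91 CPM, and Hoxc9, a gene of thoracic motor neurons, from 0 to 0.625, 3.63 to 12.8 and 0.367 to 2.22 CPM. For these 3 genes no PKP4-KO library overlapped WT or Rescue, and in CPM Rescue stood closer to WT. On the log2 scale this did not hold throughout. Over the 4 conditions Rescue differed from WT by 3.31 to 4.42 for Hoxc4, 2.30 to 4.70 for Hoxc6 and 0.86 to 3.42 for Hoxc9. From PKP4-KO it differed by -3.42 to -1.64, -3.66 to -1.48 and -3.50 to -1.18. Hoxc13, at the posterior end of the same cluster, overlapped in all 3 lines over all conditions, with 5.76 to 19.3 CPM in WT, 8.58 to 25.1 in PKP4-KO and 9.09 to 16.3 in Rescue. Within 24 h PKP4-KO lay above WT in both media and was called higher. With a library left out, the log2 difference was 0.48 to 0.73 in LCM, where 2 of 6 fits lost the call. In HCM it was 1.35 to 1.74, and 0 lost it. Rescue was called lower than PKP4-KO in 3 conditions and higher in 1.

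Hoxa7, a central member of the Hoxa cluster, was the member with the highest single PKP4-KO library. At 24 h it stood at 50.05, 18.6 and 21.0 CPM in LCM and at 16.5, 19.7 and 55.7 CPM in HCM. At 72 h it stood at 27.2, 39.9 and 19.8 CPM in LCM and at 21.1, 26.0 and 23.6 CPM in HCM. Libraries of 1 group thus differed by more than 3 times, which was more than any difference between the 4 conditions. WT libraries lay between 0 and 1.08 CPM and Rescue libraries between 1.44 and 5.16 CPM, so the 3 lines did not overlap. PKP4-KO was 152-fold, 64.0-fold, 117-fold and 84.6-fold above WT, and Rescue 10.3-fold, 19.3-fold, 9.40-fold and 9.11-fold below PKP4-KO, in the order 24 h LCM, 24 h HCM, 72 h LCM and 72 h HCM. WT libraries held 0 to 15 counts of Hoxa7, and with 1 library left out the fitted log2 difference of PKP4-KO from WT was 6.59 to 8.38, 5.36 to 7.35, 6.57 to 7.36 and 6.02 to 8.48. That of Rescue from PKP4-KO was -3.72 to -2.78, -4.56 to -3.51, -3.81 to -2.97 and -3.37 to -3.06.

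**Figure D4:**
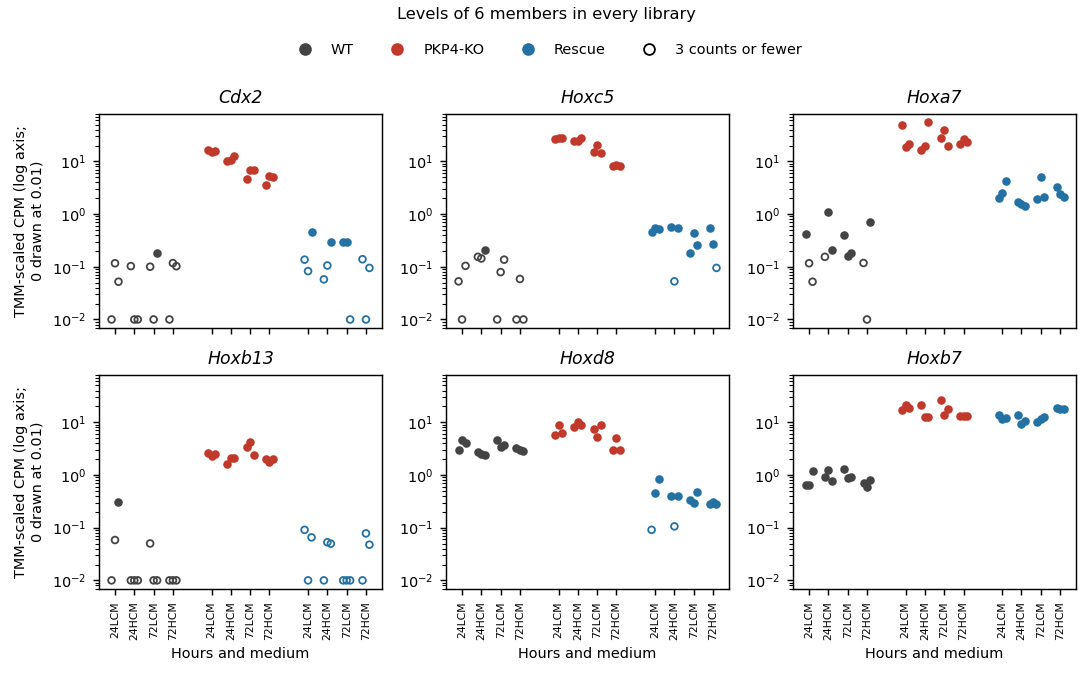
Level of Cdx2, Hoxc5, Hoxa7, Hoxb13, Hoxd8 and Hoxb7 in each of the 36 libraries (CPM, log axis, with 0 drawn at 0.01 and open points for libraries with at most 3 counts), by line and condition. Rescue points lie far below PKP4-KO for Cdx2, Hoxc5 and Hoxb13, near PKP4-KO for Hoxb7, between WT and PKP4-KO for Hoxa7 and below both for Hoxd8.

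Hoxb7, the paralogue of Hoxa7 in the Hoxb cluster, stood apart from Hoxa7 in Rescue. It stood at 0.587 to 1.30 CPM in WT, 12.4 to 26.0 CPM in PKP4-KO and 9.36 to 18.9 CPM in Rescue. PKP4-KO exceeded WT by 4.50 ± 0.27, 3.99 ± 0.27, 4.22 ± 0.26 and 4.24 ± 0.29 on the log2 scale (SE from the fit), which is 22.9-fold, 15.7-fold, 18.6-fold and 18.8-fold. Rescue exceeded WT by 15.1-fold, 11.4-fold, 11.2-fold and 25.9-fold. Over all conditions the PKP4-KO and Rescue libraries overlapped. Within LCM, Rescue lay below PKP4-KO at both times and was called lower. With a library left out, the log2 difference was -0.68 to -0.52 at 24 h, where 4 of 6 fits lost the call. At 72 h it was -0.92 to -0.45, and 1 of 6 lost it. At 72 h in HCM Rescue lay above PKP4-KO, but was not called.

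Other Hoxb members ranged from a wide difference to none. Hoxb2, a hindbrain gene, ranged from 0.0583 to 0.612 CPM in WT, 6.48 to 16.4 in PKP4-KO and 2.22 to 6.58 in Rescue. Hoxb4, known from blood stem cells, ranged from 0.118 to 0.515, 1.26 to 4.28 and 1.39 to 4.05 CPM, with Rescue and PKP4-KO overlapping throughout. Hoxb13, a gene of the prostate and tail, ranged from 0 to 0.312 CPM in WT, 1.63 to 4.19 in PKP4-KO and 0 to 0.0910 in Rescue, and PKP4-KO was at least 15.2-fold, 11.3-fold, 24.4-fold and 8.81-fold above WT in the 4 conditions. Hoxb9 showed no call between PKP4-KO and WT, with log2 differences of 0.32 ± 0.16, 0.08 ± 0.16, 0.19 ± 0.16 and 0.17 ± 0.17, but without TMM factors the last of these turned to -0.57 and was called.

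Hoxd8 separated Rescue from both other lines. It stood at 2.34 to 4.61 CPM in WT, 2.92 to 9.92 CPM in PKP4-KO and 0.0910 to 0.851 CPM in Rescue. It was 8.24-fold, 8.36-fold, 10.7-fold and 10.3-fold lower in Rescue than in WT and 14.8-fold, 29.6-fold, 19.6-fold and 12.5-fold lower than in PKP4-KO. With a library left out, the fitted log2 difference of Rescue from WT at 24 h in LCM was -3.75 to -2.58, and that from PKP4-KO was -4.60 to -3.43. Hoxd9, a limb and trunk gene, stood at 0 to 0.308 CPM in WT, 1.74 to 5.69 in PKP4-KO and 0 to 0.106 in Rescue, so that WT and Rescue overlapped. The long noncoding RNA Hoxd3os1, which overlaps Hoxd8 on the opposite strand, stood at 0.309 to 1.66 CPM in WT, 0.502 to 2.91 in PKP4-KO and 0 to 0.298 in Rescue, lower in Rescue than in PKP4-KO in all 4 conditions by a mean log2 difference of -4.85.

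In Rescue against WT, 12, 11, 12 and 18 members were called higher in the 4 conditions (13.5%, 11.8%, 17.9% and 19.5% of all genes) and 1, 1, 2 and 1 lower (11.4%, 11.4%, 14.6% and 16.7%). Called higher in all 4 were 8 members (5.13% of all genes), among them Hoxb2, Hoxb4, Hoxb6, Hoxb7, Hoxc4 and Hoxc6. Called lower in all 4 was Hoxd8 alone (3.21% of all genes). By range alone, 9 members lay above WT in all 4, the added one being Hoxa7 (6.68%), and Hoxd8 lay below it (4.7%). Leaving out 1 library at a time gave 7 to 9 members higher in all 4. Hoxb6 lost its call without any of 4 libraries at 24 h in LCM (0.65 to 0.83 on the log2 scale) and without any of 6 at 72 h in LCM (0.68 to 0.85), and Hoxc6 without WT 24 h HCM replicate 3 (2.03). The second member lower at 72 h in LCM was Hoxc13, with 9.16, 9.43 and 9.18 CPM in Rescue against 16.3, 19.3 and 18.1 CPM in WT.

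In Rescue against PKP4-KO, 17, 16, 15 and 11 members were called lower (15.5%, 19.0%, 18.3% and 29.5% of all genes) and 1, 1, 2 and 7 higher (18.2%, 21.7%, 23.3% and 37.2%). The count at 72 h in HCM depends on the scaling, since without TMM factors 11 members were higher and 6 lower there. Called lower in all 4 conditions were 11 members (5.99% of all genes), namely Cdx2, Hoxa7, Hoxa9, Hoxb2, Hoxb13, Hoxc4, Hoxc5, Hoxc6, Hoxc9, Hoxd8 and Hoxd9, and the number was 6 without TMM factors. The same 11 lay below PKP4-KO by range in all 4 (6.88%). None was called higher in all 4 (9.08%). With 1 library left out at a time the 11 became 9 to 11, and the calls lost were at 72 h in HCM, those of Hoxc6 (-1.21) and Hoxc9 (-0.92) without Rescue replicate 3 and of Hoxc9 (-1.02) without PKP4-KO replicate 3. Hoxa3, Hoxa4, Hoxb4, Hoxb6 and Hoxb7, which were above WT in both lines in several conditions, are not in this set.

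The members called higher in Rescue than in PKP4-KO at 72 h in HCM include Hoxa3, Hoxa5, Hoxb6, Hoxb8, Hoxb9 and Hoxc13. The fitted log2 differences were 2.84 ± 0.59 for Hoxa3, 2.12 ± 0.34 for Hoxa5, 1.89 ± 0.41 for Hoxb8, 1.85 ± 0.31 for Hoxb6, 1.21 ± 0.17 for Hoxb9 and 0.77 ± 0.21 for Hoxc13. Hoxa3 held 1, 5 and 3 counts in the PKP4-KO libraries of this condition, near the detection floor. Hoxb8 stood at 0.889, 1.16 and 1.48 CPM in PKP4-KO and at 5.05, 4.71 and 3.42 CPM in Rescue, and no library of the 2 lines overlapped for any of the 6 genes. All 6 calls held with each library left out. This is the group of 3 PKP4-KO libraries with low TMM factors, and without those factors the 6 differences were 1.94 to 4.00. Hoxb8 was also called higher in Rescue at 24 h in HCM (0.99) and at 72 h in LCM (1.09), but with a library left out it lost these calls in 3 and 4 of 6 fits, with differences down to 0.72 and 0.81.

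The remaining members stood low. Hoxa9 ranged from 0 to 0.251 CPM in WT, 1.02 to 5.87 in PKP4-KO and 0 to 0.367 in Rescue. Hoxa3 ranged from 0 to 0.175, 0.127 to 2.06 and 0.159 to 3.27 CPM, and Hoxa4 from 0.364 to 2.41, 1.61 to 4.22 and 1.09 to 4.04 CPM. Hoxb3 and Hoxb5 held at most 3.54 and 2.96 CPM in any library and overlapped between the lines over all conditions, but within 24 h PKP4-KO lay above WT for Hoxb5 in both media and for Hoxb3 in HCM, and was called higher. Hoxb8, known from microglia, was the only tested member whose fitted level was lower in PKP4-KO than in WT in all 4 conditions, by 0.52 to 0.90 on the log2 scale, and it was not called in any of them, although without TMM factors it was called at 72 h in HCM (-1.57). Hoxa2, Hoxc8, Hoxc10 and Hoxd11 were tested but held at most 1.25 CPM in any library. Of the 14 members that were not tested, Cdx1, Hoxa13, Hoxd1 and Hoxd12 had no read, 10 in all held at most 3 counts in every library, and Hoxa6, Hoxa10, Hoxa11 and Hoxd10 reached 12, 6, 4 and 5 counts.

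Calcium and time within each line are questions that the choice of the genes did not use, and they were tested. In WT, added calcium lowered Hoxc13 and Hoxb9 at 72 h, and no member was higher. Hoxc13 stood at 16.3, 19.3 and 18.1 CPM in LCM and at 8.56, 8.10 and 9.23 CPM in HCM, and Hoxb9 at 27.03, 26.7 and 26.7 CPM in LCM and at 12.6, 15.8 and 19.5 CPM in HCM. The groups did not overlap. Hoxc13 fell by 1.06 ± 0.20 on the log2 scale (adjusted p = 0.00029, edgeR quasi-likelihood test with Benjamini-Hochberg adjustment) and Hoxb9 by 0.75 ± 0.16 (edgeR adjusted p = 0.00124). These were 2 of 27 members lower (10.8% of all genes) and 0 higher (10.6%, 0 also in DESeq2), and both calls held with each library left out in turn.

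At 24 h, calcium lowered 3 members in WT (6.48% of all genes) and raised 0 (7.69%). Hoxc13 went from 11.5, 11.6 and 10.4 CPM to 8.04, 5.82 and 5.76 CPM, by -0.77 ± 0.20 on the log2 scale (edgeR adjusted p = 0.00927). Its levels did not overlap between the media. The call rested on single libraries, with -0.70 (edgeR adjusted p = 0.0535) without WT 24 h HCM replicate 2 and -0.69 (0.0524) without replicate 3. Hoxb13 was also called, but was at or below 0.312 CPM in all WT libraries.

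Time in culture changed Hoxa4 in WT. It stood at 0.529, 0.583 and 0.364 CPM at 24 h in LCM and at 1.96, 1.39 and 2.41 CPM at 72 h, an increase of 1.95 ± 0.30 on the log2 scale (edgeR adjusted p = 7.3e-05) that held with each library left out. In LCM 2 of 27 members were higher at 72 h (5.29% of all genes) and 0 lower (4.66%, 0 also in DESeq2). The second, Hoxc13, was higher by 0.68 ± 0.20 (edgeR adjusted p = 0.0259), and this call was lost without any of 5 of the 6 libraries, at 0.63 to 0.71. In HCM Hoxa4 was higher (0.92 ± 0.29, edgeR adjusted p = 0.0295) and Hoxb9 lower (-0.47 ± 0.16, edgeR adjusted p = 0.0481), as 1 member higher (9.16% of all genes) and 1 lower (8.69%). Each of these HCM calls was lost without any of 3 libraries, at 0.78 to 0.88 for Hoxa4 and -0.47 to -0.28 for Hoxb9.

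In the PKP4-KO line calcium changed no member at 24 h by edgeR, where 1.44% of all genes were higher and 1.40% lower. The unadjusted p was below 0.05 for 0 members, and DESeq2 called 0. At 72 h 7 members were lower in HCM (19.7% of all genes) and 0 higher (12.9%). These were Hoxa5, Hoxb6, Hoxb9, Hoxc5, Hoxc10, Hoxc13 and Hoxd8. Hoxb6, a gene of the rib cage, stood at 6.77, 2.94 and 4.90 CPM in LCM and at 1.91, 2.76 and 1.70 CPM in HCM, lower by 1.21 ± 0.31 (edgeR adjusted p = 0.00336), and no HCM library reached an LCM library. Hoxb9 went from 26.8, 34.2 and 30.8 CPM to 17.4, 17.6 and 18.9 CPM, by -0.77 ± 0.17 (edgeR adjusted p = 0.000775). The calls of Hoxb6 and Hoxb9 held with each library left out, and leaving out 1 library at a time gave 3 to 6 calls. Hoxc13 was at -0.45 (edgeR adjusted p = 0.0887) without PKP4-KO 72 h LCM replicate 2, Hoxa5 at -0.97 and -0.94 (0.0508 and 0.0631) without PKP4-KO 72 h LCM replicate 1 or without 72 h HCM replicate 3, and Hoxc5, Hoxc10 and Hoxd8 lost the call without any of 4 libraries each, at up to 0.145. This comparison uses the 3 libraries with TMM factors of 0.481 to 0.546, and without TMM factors 18 members were lower.

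In the PKP4-KO line in HCM, 13 of 27 were lower at 72 h than at 24 h (31.4% of all genes) and 0 higher (24.3%). Hoxc5 went from 24.7, 24.0 and 28.1 CPM to 8.26, 8.43 and 8.29 CPM, by -1.62 ± 0.34 on the log2 scale (edgeR adjusted p = 0.000254). Hoxa5, a gene of the lung and the cervicothoracic skeleton, went from 4.38, 5.94 and 5.47 CPM to 1.78, 1.89 and 1.02 CPM, by -1.76 ± 0.34 (edgeR adjusted p = 7.96e-05). In both the groups were clearly apart. Hoxa3, Hoxb6, Hoxc4, Hoxc10, Hoxc13 and Hoxd8 were also called lower in every fit with a library left out. Their log2 differences in these fits were -7.08 to -0.82. The largest were those of Hoxc10 (-7.08 to -3.65), which held 1, 0 and 0 counts at 72 h, at the detection floor. The call of Cdx2 (-1.28 ± 0.50, edgeR adjusted p = 0.0328) was lost without any of the 6 libraries (-1.38 to -1.13, up to 0.114). Hoxd9 lost its call without any of 5 (-1.22 to -1.02), Hoxa9 without any of 3 (-1.72 to -1.57), Hoxb3 without PKP4-KO 24 h HCM replicate 1 or 72 h HCM replicate 2 (-1.62 to -1.43) and Hoxb2 without PKP4-KO 72 h HCM replicate 1 (-0.81). The median of all genes in this comparison moved by -1.07 on the log2 scale without TMM factors, where 22 members were lower.

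In LCM, which does not use the libraries that stood apart, the PKP4-KO line had 1 member higher at 72 h (12.4% of all genes) and 1 lower (13.7%). Hoxa4 rose from 1.69, 1.61 and 1.83 CPM to 2.93, 2.60 and 3.75 CPM, by 0.86 ± 0.28 (edgeR adjusted p = 0.0211), with 0.81 (0.0744) without PKP4-KO 24 h LCM replicate 2 and 0.69 (0.106) without PKP4-KO 72 h LCM replicate 3. Cdx2 was lower by 1.37 ± 0.49 (edgeR adjusted p = 0.0388), from 15.7 ± 0.516 CPM to 6.08 ± 1.20 CPM (SD, n = 3). The Cdx2 groups did not overlap, but the call was lost without any of the 6 libraries, with log2 differences of -1.46 to -1.22 and an edgeR adjusted p of up to 0.137.

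**Figure D5:**
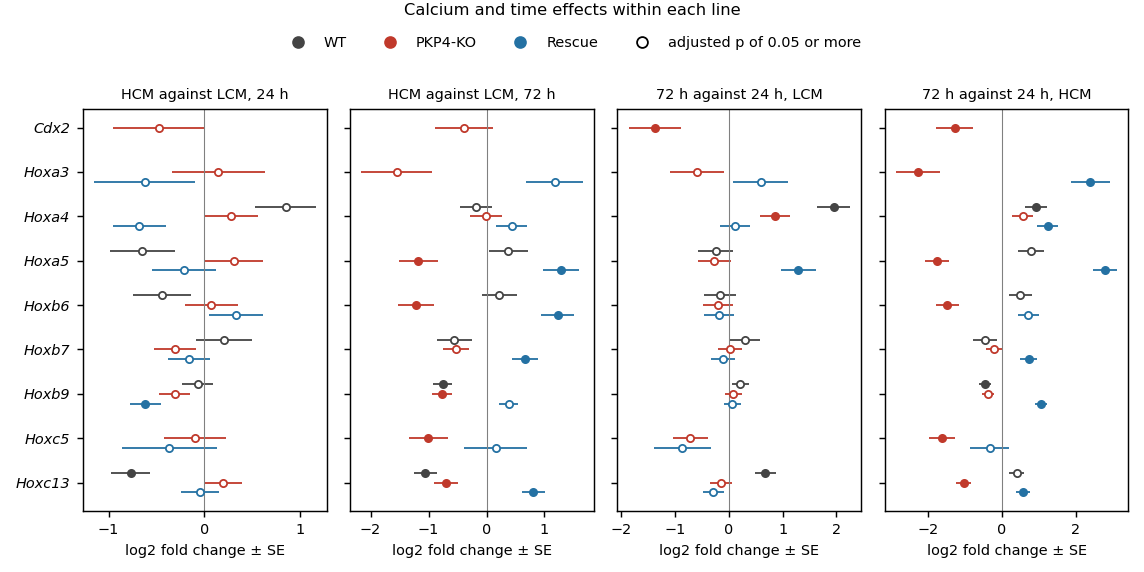
Effect of calcium (HCM against LCM at 24 h and 72 h) and of time (72 h against 24 h in LCM and HCM) on 9 members, as log2 fold change with its SE, in the 3 lines. Filled points have an adjusted p below 0.05 and members with a median of at most 3 counts in a line are left out. At 72 h the calcium effects of Hoxa5, Hoxb6 and Hoxc13 lie below 0 in PKP4-KO and above 0 in Rescue.

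In the Rescue line calcium raised 5 members at 72 h (13% of all genes) and lowered 0 (12%). Hoxa5 stood at 2.38, 2.50 and 3.41 CPM in LCM and at 6.25, 6.54 and 7.47 CPM in HCM, an increase of 1.29 ± 0.31 (edgeR adjusted p = 0.00246). Hoxb6 went from 3.70, 3.02 and 2.99 CPM to 8.48, 7.55 and 6.85 CPM, by 1.23 ± 0.28 (edgeR adjusted p = 0.00181), and Hoxc13 from 9.16, 9.43 and 9.18 CPM to 16.1, 16.3 and 16.2 CPM, by 0.81 ± 0.20 (edgeR adjusted p = 0.00354). All 3 were apart in every library, and their calls held with each library left out. Hoxb7 and Hoxc9 were also called, but Hoxb7 lost the call without any of 5 libraries (0.58 to 0.68) and Hoxc9 without any of 4 (0.84 to 1.13). At 24 h calcium lowered 2 members (5.96% of all genes) and raised 0 (6%). Hoxb9 fell by 0.62 ± 0.16 (edgeR adjusted p = 0.0104), a call that was lost without replicate 3 of either medium (-0.53 and -0.52).

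Time raised members in the Rescue line and lowered none by edgeR. In HCM 9 of 27 were higher at 72 h (13.6% of all genes) and 0 lower (10.7%). Hoxa5 rose from 0.635, 1.48 and 0.795 CPM to 6.25, 6.54 and 7.47 CPM, by 2.79 ± 0.33 on the log2 scale (edgeR adjusted p = 3.04e-07). Hoxb9 rose from 20.7, 21.8 and 16.9 CPM to 43.0, 47.8 and 33.6 CPM, by 1.07 ± 0.16 (edgeR adjusted p = 1.52e-05). Hoxa3, a gene of the pharyngeal organs, rose by 2.39 ± 0.52 (0.00107) and Hoxa4 by 1.23 ± 0.28 (0.00139), and all 4 of these calls held with each library left out. Hoxb7, Hoxc6, Hoxc9 and Hoxc13 were called but lost the call without any of 3, 5, 4 and 5 libraries, at 0.60 to 0.69, 1.14 to 1.59, 1.05 to 1.19 and 0.45 to 0.61 on the log2 scale. In LCM Hoxa5 was the 1 member higher (6.84% of all genes) and 0 were lower (2.96%). It rose from 1.001, 1.32 and 1.05 CPM to 2.38, 2.50 and 3.41 CPM, by 1.29 ± 0.32 (edgeR adjusted p = 0.00748), and by 1.104 (0.0543) without Rescue 72 h LCM replicate 3.

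The differences of PKP4-KO and of Rescue from WT in these effects were tested as interaction contrasts, and the difference between Rescue and PKP4-KO was not tested. The time effect averaged over both media was lower in PKP4-KO than in WT for 3 members (15.6% of all genes) and higher for 0 (11%). Hoxc13 differed by -1.13 (edgeR adjusted p = 0.000109), Hoxa5 by -1.29 (0.0041) and Hoxb6 by -1.01 (0.0123) on the log2 scale, and all 3 held with each library left out. The time effect was higher in Rescue than in WT for Hoxa5 by 1.77 (edgeR adjusted p = 0.000738) and for Hoxb9 by 0.69 (0.00567), which are 2 members (5.7% of all genes), with 0 lower (4.96%). The calcium effect averaged over both times was higher in Rescue than in WT for 3 members (3.77% of all genes) and lower for 1 (6.42%), of which Hoxc13 (1.29, edgeR adjusted p = 7.49e-05) held with each library left out. For the calcium effect in PKP4-KO against WT no member was called higher or lower by edgeR (1.09% and 3.49% of all genes), with 3 higher and 1 lower at an unadjusted p below 0.05 and 1 called by DESeq2.

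Genes that work with Hox proteins or act on the clusters were counted as lists. For the 9 TALE cofactors, which bind DNA together with Hox proteins, 8 were tested and 0, 1, 1 and 0 were called higher and 4, 3, 3 and 2 lower in PKP4-KO against WT in the order 24 h LCM, 24 h HCM, 72 h LCM and 72 h HCM. Pbx3 was lower in all 4, with a mean log2 difference of -1.17 and levels of 7.33 to 12.2 CPM in WT and 2.38 to 5.86 CPM in PKP4-KO. Meis3 was higher in Rescue in all 4, by a mean of 3.12 against WT and 4.16 against PKP4-KO, at 7.37 to 19.4 CPM in Rescue against 0.875 to 2.46 CPM in WT. Of 18 Polycomb genes 3, 4, 4 and 3 were called higher and 4, 5, 8 and 10 lower in PKP4-KO than in WT. Cbx2 and Phc1, parts of the complex that compacts silent Hox chromatin, were lower in all 4 by means of 1.42 and 1.34, while Ring1 and Jarid2 were higher by means of 1.09 and 1.02. In Rescue against PKP4-KO, Phc1 and Ezh1 were higher in all 4 by means of 1.58 and 0.73 and Ring1 lower (-0.87), and against WT Jarid2 and Phc2 were higher by 1.35 and 0.49. Of 9 Trithorax and H3K27 demethylase genes 0 were called higher and 4, 1, 6 and 5 lower by edgeR. The share of all tested genes called higher in these conditions was 19.7% to 21.9% and the share called lower 20.6% to 29.9%.

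For the signals that act on the clusters in the embryo, 11 of 18 retinoic acid pathway genes were tested, and 4, 4, 3 and 3 were higher and 2, 2, 2 and 3 lower in PKP4-KO than in WT. Rarg, the main retinoic acid receptor of epidermis, was higher in all 4 conditions by a mean of 0.55. In Rescue against WT, Aldh1a3, which makes retinoic acid, was higher in all 4 by a mean of 4.96, as it was against PKP4-KO (3.11), and Dhrs3, which limits its precursor, lower by a mean of 2.50. Of 12 Wnt, FGF and GDF11 genes 6 were tested, and 1, 3, 1 and 0 were higher and 1, 1, 2 and 3 lower in PKP4-KO. Axin2, a target of Wnt signalling, was lower in all 4 by a mean of 3.19. Of 16 listed noncoding RNAs of the clusters 5 were tested, and 1, 1, 1 and 2 were higher and 0, 0, 1 and 0 lower. Hoxb3os, antisense to Hoxb2 and Hoxb3, was higher in all 4 in PKP4-KO by a mean of 5.39 and in Rescue by a mean of 4.12, at 0 to 0.255 CPM in WT, 2.30 to 6.65 in PKP4-KO and 0.806 to 3.34 in Rescue. Genes within 5 Mb of the 4 clusters and of Cdx2 had median log2 differences of -0.86 to 0.79 over the comparisons between lines.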

How the data were processed

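RNA-seq was analysed from 36 libraries of mouse keratinocytes (3 lines, 2 times, 2 media, 3 libraries each). The deposited values are whole-number counts per gene, which the authors made from strand-specific paired reads with HISAT2 2.1.0 on mm39 with the GFP-PKP4 sequence added, SAMtools 1.10 and featureCounts 2.0.0 on Ensembl annotation. The strand setting of the counting is not given in the sources used here. Secondary alignments were removed by the authors, so reads shared by near-identical stretches may be lost or assigned to 1 gene.

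Groups were taken from the sample labels. All 36 libraries were fitted together (12 groups, 24 residual degrees of freedom) with edgeR 4.0.16 in R 4.3.3, after filterByExpr and TMM scaling, with quasi-likelihood tests and Benjamini-Hochberg adjustment over 15114 genes at 0.05. Levels are CPM of the TMM-scaled library size. A group whose libraries all held at most 3 counts, or whose mean CPM did not exceed that of 3 counts per library, was replaced by 3 counts per library for folds, which are then lower bounds. Annotation and sequences came from the GRCm39 genome and its gene models, in which 98.9% of gene identifiers were found. Libraries of a group differed by more than sampling noise in all 36 pairs (chi-square per gene of 7.51 to 293.73), so none was merged. In data simulated for PKP4-KO against WT at 24 h in HCM over 14117 genes, edgeR called 81 of 100 genes seeded with a log2 change of 2, 15 of 100 seeded with 1, and 2 others falsely.

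The members and gene lists were chosen with earlier results of these data known. For 1 member and 1 list gene, which are counted in the totals, values are not reported here. Members with a group mean of at least 1 CPM were named with their levels, and in each comparison within a line the called members were named, at most 10 by size of change. Between lines, those called in all 4 conditions were named, and others where a paragraph gives them. List genes were named where called in the same direction in all 4 conditions, at most 5 a list. Alternatives were DESeq2 (1.42.0) and its size factors, no TMM factors, no low-count filter, only the groups compared, a replicate block and each library left out. A fit without the PKP4-KO 72 h HCM group was added after seeing the data. Counting error apart, the 3 libraries per group limit the precision.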

Additional observations from a re-analysis of the deposited data

Results flagged for a closer look

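Members of the family whose response to time or calcium differed between lines in an interaction test follow with their values on the log2 scale. The time effect, averaged over LCM and HCM, was lower in PKP4-KO than in WT for Hoxa5 (-1.29, edgeR adjusted p = 0.0041), Hoxc13 (-1.13, edgeR adjusted p = 0.000109) and Hoxb6 (-1.01, edgeR adjusted p = 0.0123). The PKP4-KO side of these contrasts holds the 3 PKP4-KO 72 h HCM libraries with TMM factors of 0.481 to 0.546, and without TMM factors 8 members were called in place of 3. The part of the scaling in these differences was not tested further.

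The time effect was higher in Rescue than in WT for Hoxa5 (1.77, edgeR adjusted p = 0.000738) and Hoxb9 (0.69, edgeR adjusted p = 0.00567). The calcium effect, averaged over 24 h and 72 h, was higher in Rescue than in WT for Hoxc13 (1.29, edgeR adjusted p = 7.49e-05), Hoxc9 (1.61, edgeR adjusted p = 0.0455) and Hoxb6 (0.90, edgeR adjusted p = 0.0479) and lower for Hoxb2 (-1.45, edgeR adjusted p = 0.0363). Of these last 4, Hoxc13 was called in each fit with 1 of the 24 libraries left out, and the number called in these fits was 1 to 4. Hoxb2 lost its call without any of 12 libraries (-1.47 to -1.18), Hoxc9 without any of 15 (1.29 to 1.68) and Hoxb6 without any of 19 (0.74 to 0.95). Hoxc13 carried a call in both kinds of contrast, with WT levels of 16.3, 19.3 and 18.1 CPM and Rescue levels of 9.16, 9.43 and 9.18 CPM at 72 h in LCM.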

How the results depend on the processing

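Of 254 calls of the members reported here, 248 kept their direction and side of the threshold with DESeq2 size factors, 250 with DESeq2 and 225 without TMM factors, and 0 reversed under these settings. Without TMM factors, 17 members were called in Rescue against PKP4-KO at 72 h in HCM, with the balance turned to 11 higher and 6 lower. The same setting gave 5 for calcium in WT at 24 h and 4 at 72 h, 1 for time in WT in LCM and 1 in HCM, 18 for calcium in PKP4-KO at 72 h, 7 and 22 for time in PKP4-KO in LCM and HCM, 1 for calcium in Rescue at 24 h, 8 for the time interaction of PKP4-KO and 6 lower in all 4 conditions in Rescue against PKP4-KO. The cause was not tested beyond the shift of all genes, which reached -0.76 in PKP4-KO against WT, 1.18 in Rescue against PKP4-KO and -1.07 in the PKP4-KO time effect, all with the 72 h HCM group.

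With no low-count filter, more genes are tested, and the members called were 0 for time in WT in HCM, 1 for time in PKP4-KO in LCM, 1 and 3 for calcium in Rescue at 24 h and 72 h, 5 for time in Rescue in HCM and 1 for the calcium interaction of Rescue. With only the groups compared, fewer libraries are fitted, and they were 1 for calcium in WT at 24 h, 0 for time in WT in HCM, 2 for the calcium interaction of Rescue and 5 higher in all 4 conditions in Rescue against WT. For time in WT in HCM, DESeq2, its size factors and the fit without the PKP4-KO 72 h HCM group each gave 1. DESeq2 gave 4 for time in PKP4-KO in LCM and 1 for the calcium interaction of PKP4-KO. The fit without the PKP4-KO 72 h HCM group gave 1 for time in PKP4-KO in LCM and 2 for the calcium interaction of Rescue. The cause was not tested.

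Leaving out 1 library at a time gave 0 to 3 for calcium in WT at 24 h, 1 to 2 and 0 to 2 for time in WT in LCM and HCM, 3 to 6 for calcium in PKP4-KO at 72 h, 0 to 1 for time in PKP4-KO in LCM, 1 to 3 and 3 to 5 for calcium in Rescue at 24 h and 72 h, 0 to 1 and 5 to 8 for time in Rescue in LCM and HCM, and 0 to 1 and 1 to 4 for the calcium interactions of PKP4-KO and Rescue. Replicate numbers did not pair the libraries. Over 72 pairs of same-numbered libraries, the correlation of deviations from the group means was -0.81 to 0.79 (median -0.04), and all 3 pairs were above 0.1 in 3 of 24 comparisons. With a replicate block 244 of the 254 member calls held, and 14, 8 and 11 members were called in all 4 conditions, as without it. Members under 3 counts in a line are limited by depth, and their absence cannot be shown.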
